A study of Mus musculus with 14 samples.

Results

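The EGR and serum-response immediate early genes described here are 10 genes taken by name from the 24463 genes of the expression files, and all 10 were found. They are the zinc-finger transcription factors Egr1, Egr2 and Egr3, their co-repressor Nab2, serum response factor (Srf), the immediate early response genes Ier2, Ier3 and Ier5, and the mRNA decay regulators Btg2 and Zfp36. Transcripts were measured by RNA sequencing in 14 libraries of leukemic stem cells (LSCs) of the mouse, which can maintain the disease. The groups were untreated LSCs from marrow deficient in Tcf1 and Lef1, the DNA-binding partners of beta-catenin (dKO, n = 3), LSCs from control marrow given 20 µM prostaglandin E1 (PGE1, n = 3), 20 µM prostaglandin E2 (PGE2, n = 2) or the solvent DMSO (n = 3) for 6 h, and untreated wild-type LSCs (WT, n = 3). Every group carried p210 BCR-ABL, the fusion kinase of chronic myeloid leukemia, brought in by 2 retroviral transductions 24 h apart. Lineage-negative marrow cells had been kept for 48 h in IMDM with stem cell factor at 50 ng/ml, fetal serum at 15% and thrombopoietin at 20 ng/ml, and lineage-negative cells positive for c-Kit, Sca1 and GFP were sorted as LSCs, so serum and growth factors had been present in all groups. The means of the Tcf1 and Lef1 deletion, the animals' ages, any pooling of animals and the order of treatment and sort are not stated by the sources used here.

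Immediate early genes are transcribed soon after a stimulus without new protein synthesis. Serum and growth factors act in part through the ERK pathway on SRF, which binds CArG boxes together with ELK factors or myocardin-related factors and drives Egr1 and other genes of this class. EGR proteins bind GC-rich sites and induce Nab2, whose protein represses EGR activity, while ZFP36 and BTG2 bring deadenylases to mRNA. In mouse hematopoietic stem cells Egr1 is known for restraining division and mobilization. Prostaglandins E1 and E2 act on EP receptors, some of which raise cAMP, and PGE2 differs from PGE1 by an extra double bond in a side chain.

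Values are FPKM, fragments scaled to gene length and library depth. Totals were 31.3 to 33.8 M reads in untreated and 19.0 to 22.7 M in treated libraries. Whether replicates came from separate mice or cultures is not labelled, and the p-values therefore measure the spread of these libraries, which may be technical. The genotype field named dKO replicate 1 wild type and DMSO replicate 1 Tcf1/Lef1-deficient, against their titles. Tcf7, which encodes Tcf1, stood at 0.022 to 0.142 FPKM in the dKO libraries, at 0.850 to 1.53 in DMSO and at 1.15 to 1.48 in WT. Lef1 was low throughout, at 0.105 to 0.184 FPKM in dKO, 0.166 to 0.279 in DMSO and 0.223 to 0.319 in WT. It overlapped between dKO and DMSO and did not separate them. The titles set the groups. Both libraries also stood apart: the median variance of replicate pairs with dKO replicate 1 was 8.79 and 9.16 times counting noise, against 4.18 for the other dKO pair, and 12.1 and 14.2 with DMSO replicate 1, against 1.73. Pairs with PGE1 replicate 2 stood at 30.5 and 32.1 times, against 7.23. The sort markers Kit and Ly6a (Sca1) averaged 23.0 and 3.12 FPKM in dKO and 28.0 and 11.3 in WT. The Y-linked gene Ddx3y had 0 reads in the dKO libraries, against 7.72 to 8.94 FPKM in WT, so genotype and the sex of the donors cannot be told apart.

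Across the 5 groups the 10 genes fell into different orders. Egr1 had the widest range, with group means from 4.60 FPKM after PGE1 to 153 FPKM after PGE2, a 33.3-fold span. Its order was PGE2, WT, DMSO, dKO and PGE1, and dKO and PGE1 were the only neighbours whose libraries overlapped. Egr2 and Egr3 were low in every group, with highest means of 1.09 and 0.348 FPKM after DMSO. Ier2 varied least, with a 1.42-fold span between WT and PGE1, and all of its neighbouring groups overlapped. Srf spanned 1.65-fold and was the only one of the 10 with its highest mean in dKO, at 32.0 FPKM. For the other 9 genes dKO was the lowest or, for Egr1 and Ier2, the lowest but PGE1. Ier3 and Btg2 were highest after PGE1 and Ier5 after DMSO, and no neighbouring groups overlapped for Ier5 (a 5.83-fold span). Nab2 followed the order of Egr1 except that dKO was below PGE1, and its WT and DMSO libraries overlapped. Zfp36 spanned 6.51-fold, and PGE2 overlapped DMSO and PGE1 overlapped WT.

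**Figure D1:**
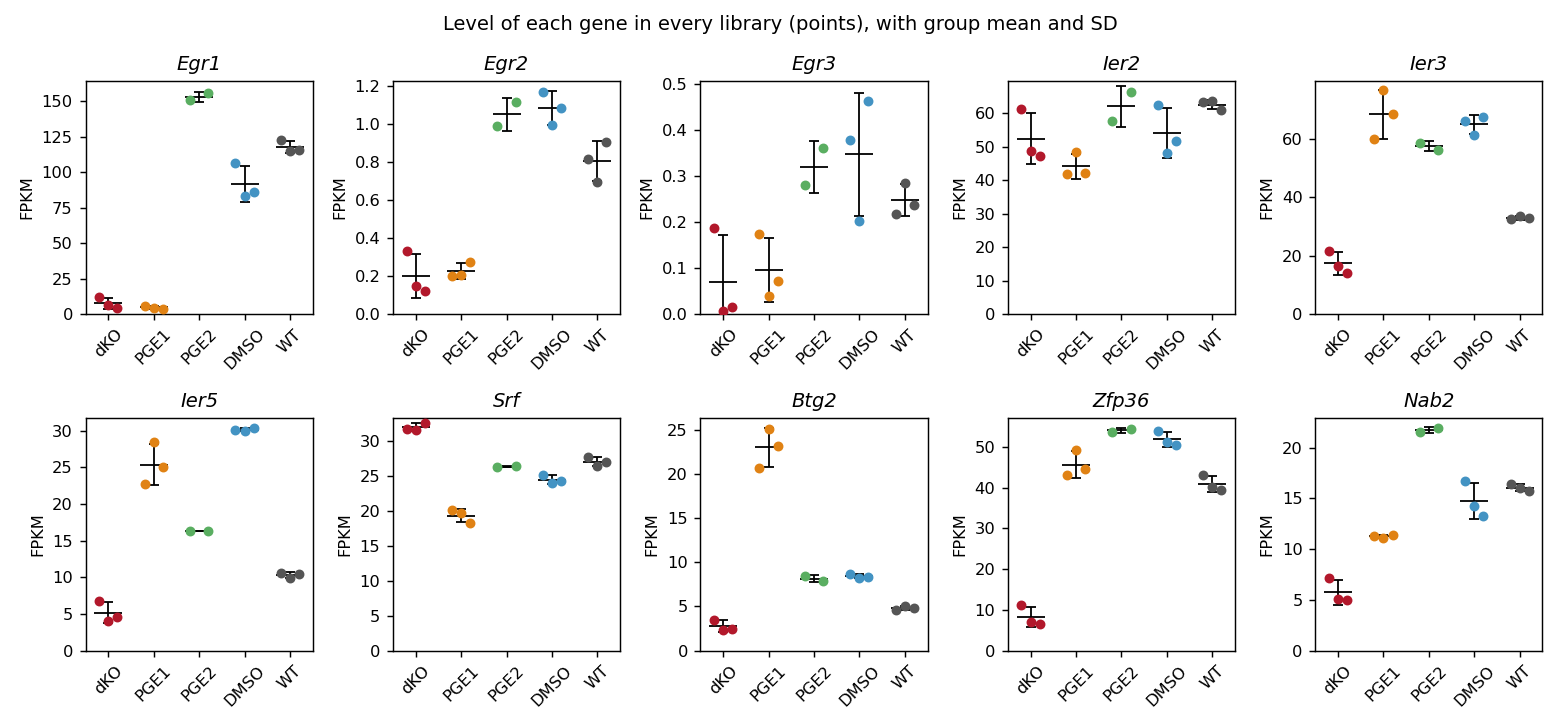
FPKM (vertical axes, linear from 0) of the 10 genes in each library, one panel a gene, with points for libraries and bars for the group mean and SD in dKO, PGE1, PGE2, DMSO and WT. Egr1 lies at 3.58 to 11.9 FPKM in all dKO and PGE1 libraries and at 83.2 FPKM or more in the others, while Btg2 is highest in the 3 PGE1 libraries.

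Promoter sequences are shown for the 3 genes whose windows held an EGR-type motif: Btg2, highest after PGE1, Zfp36, lowest in dKO, and Srf, highest in dKO. They are the 250 bases before the annotated start, on the gene's strand, from RefSeq on GRCm38.p6, a later build than the mm9 of the files. Btg2 lies at chr1:134079156-134079405, Zfp36 at chr7:28379229-28379478 and Srf at chr17:46556163-46556412, all on the minus strand. Capitals mark the motif matches, in the order named before each sequence.
Btg2 (CRE, EGR site): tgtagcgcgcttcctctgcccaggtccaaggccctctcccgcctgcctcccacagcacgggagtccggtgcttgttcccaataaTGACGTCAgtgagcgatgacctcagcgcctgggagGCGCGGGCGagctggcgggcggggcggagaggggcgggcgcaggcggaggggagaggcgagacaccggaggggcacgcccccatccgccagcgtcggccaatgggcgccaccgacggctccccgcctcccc
Zfp36 (EGR site, ETS site, CArG box): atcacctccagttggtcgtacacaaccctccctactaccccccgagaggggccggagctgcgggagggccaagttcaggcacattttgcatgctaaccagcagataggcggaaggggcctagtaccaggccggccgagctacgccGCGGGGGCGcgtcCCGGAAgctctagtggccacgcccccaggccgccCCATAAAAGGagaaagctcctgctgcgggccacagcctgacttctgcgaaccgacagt
Srf (ETS site, EGR site, 2 CArG boxes): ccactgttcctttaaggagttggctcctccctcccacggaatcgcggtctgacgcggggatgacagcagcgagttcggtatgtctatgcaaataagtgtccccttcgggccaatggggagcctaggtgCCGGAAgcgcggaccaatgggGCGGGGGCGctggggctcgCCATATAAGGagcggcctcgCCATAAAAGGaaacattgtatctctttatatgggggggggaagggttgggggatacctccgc

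The motifs searched on both strands were the CArG box bound by SRF, the EGR site GCGNGGGCG, the cAMP response element (CRE) TGACGTCA, the ETS site CCGGAA of the ELK class and the TCF/LEF site CTTTGAT. Over 32851 RefSeq promoter windows, 1.47% held a CArG box, 4.7% the EGR site, 1.55% the CRE, 12% the ETS site and 3.21% the TCF/LEF site. Windows were at hand for 7 of the 10 genes, 11 in all, and for none of Egr1, Egr3 and Ier2. Btg2 held a CRE from base -166 to -159 and an EGR site from -131 to -123. Zfp36 held an EGR site at -105 to -97, an ETS site at -92 to -87 and a CArG box at -58 to -49. Srf held CArG boxes at -82 to -73 and -62 to -53, an EGR site at -101 to -93 and an ETS site at -122 to -117. A CArG box lay in 4 of 5 Egr2 windows, but some of these windows overlap and share the same box. One Egr2 window also held ETS matches at -131 to -126, -129 to -124 and -48 to -43. Those at -131 to -126 and -129 to -124 overlap and are not separate sites. The windows of Ier3, Ier5 and Nab2 held none of the 5 motifs, and no window of the 7 genes held the TCF/LEF letters. No match overlapped a match of another motif, and a match describes letters, not binding.

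**Figure D2:**
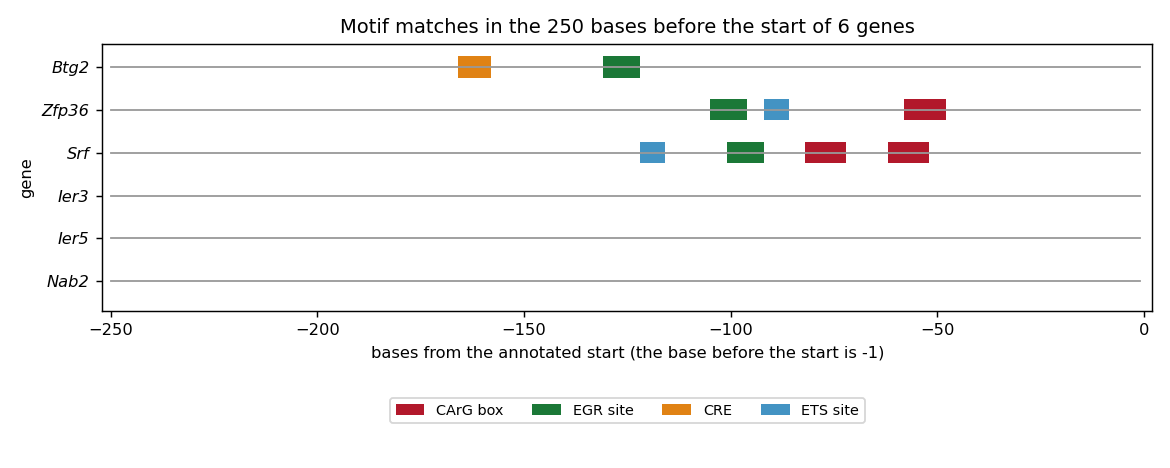
Positions of motif matches (coloured bars) in the 250 bases before the start of 6 genes, in bases from the annotated start on the horizontal axis. Btg2, Zfp36 and Srf each carry an EGR site between -131 and -93, and Ier3, Ier5 and Nab2 carry none of the motifs drawn.

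The dKO and WT libraries address what loss of Tcf1 and Lef1 goes with in untreated LSCs. Most of the 10 genes were lower in dKO, and Srf alone was higher. Egr1, Zfp36 and Nab2 fell furthest among the 8 genes tested. Of the 8 genes that reached the minimum mean level of 1 FPKM, which limma tested on log2(FPKM + 1), 1 rose and 6 fell at an adjusted p below 0.05. Over all 10721 genes tested, 40.9% were called, 18.0% higher and 22.9% lower (1930 and 2451 genes as deposited, 2701 and 2114 after median-of-ratios scaling, 2747 and 1851 after quantile normalization). The median log2 difference was -0.90 over the 8 genes and -0.0090 over all genes. Libraries did not overlap in 9 of the 10 genes, 1 higher and 8 lower in dKO, where 54.9% of all genes did not overlap, 25.3% higher and 29.6% lower.

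Egr1 had 11.9, 6.50 and 4.47 FPKM in the dKO libraries, against 123, 115 and 116 FPKM in the WT libraries. All dKO libraries lay far below all WT libraries, and dKO replicate 1 was the highest of its group. The log2 difference was -3.88 ± 0.26 (SE, limma adjusted p = 3.28e-05), the fifth largest fall of the 10721 genes. Egr2 is needed for Schwann cell differentiation. It had 0.334, 0.150 and 0.122 FPKM in dKO (58 reads in all) and 0.817, 0.694 and 0.905 FPKM in WT (234 reads). Egr3, the family member known in muscle spindles and lymphocytes, had 0.187, 0.0075 and 0.0154 FPKM in dKO (26 reads, 23 of them in replicate 1) and 0.219, 0.286 and 0.238 FPKM in WT (95 reads). Neither overlapped between the groups, the means were 3.99-fold and 3.53-fold lower in dKO, and the two-sided exact permutation p was 0.1 for each, the smallest that 3 against 3 libraries allow.

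Nab2, the co-repressor induced by EGR proteins, had 7.17, 5.10 and 4.998 FPKM in dKO, against 16.5, 16.1 and 15.7 FPKM in WT. It was 2.79-fold lower in dKO with no overlap (log2 difference -1.35 ± 0.11, limma adjusted p = 9.07e-05). Its relative Nab1 averaged 10.1 ± 0.565 FPKM in dKO and 10.4 ± 0.303 in WT (SD, n = 3 each; limma adjusted p = 0.499). Egr4 had 3 reads in dKO and 4 in WT and gives no comparison. Srf had 31.7, 31.6 and 32.7 FPKM in dKO and 27.8, 26.4 and 27.0 FPKM in WT. Its dKO libraries were all above the WT libraries by a small amount, 1.18-fold (log2 difference 0.23 ± 0.04, limma adjusted p = 0.00230).

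Zfp36 binds AU-rich elements and speeds mRNA decay. It had 11.2, 7.10 and 6.63 FPKM in dKO, against 43.2, 40.2 and 39.6 FPKM in WT, a log2 difference of -2.21 ± 0.16 (limma adjusted p = 4.22e-05). Btg2, an anti-proliferative partner of the CCR4-NOT deadenylase, had 3.52, 2.34 and 2.46 FPKM in dKO and 4.63, 5.05 and 4.86 FPKM in WT. Both genes were without overlap, and Btg2 was 1.75-fold lower in dKO (limma adjusted p = 0.00354). Ier3, a stress-induced regulator of survival, had 21.6, 16.3 and 14.1 FPKM in dKO, against 32.4, 33.7 and 32.7 FPKM in WT, 1.90-fold lower (limma adjusted p = 0.00121). Ier5, a partner of heat shock factor 1, had 6.84, 4.10 and 4.58 FPKM in dKO, against 10.6, 9.87 and 10.5 FPKM in WT, 1.99-fold lower (limma adjusted p = 0.00230). Both groups were separate for these genes too. Ier2, a nuclear protein of the immediate early response, had 61.3, 48.7 and 47.3 FPKM in dKO and 63.3, 63.6 and 61.1 FPKM in WT. Its dKO replicate 1 lay among the WT libraries and it was not called (limma adjusted p = 0.0505), while without that library the adjusted p was 1.36e-04 and the log2 difference -0.38. In 9 of the 10 genes, all but Srf, dKO replicate 1 was the highest dKO library.

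Genes that work with these 10 were counted from 13 lists. Among SRF partners, 0 rose and 3 of 5 tested fell in dKO: Elk3, an ETS partner, to 8.31 FPKM in dKO, against 17.8 in WT, Elk4 to 5.53, against 7.32, and Mkl1, a myocardin-related factor, to 9.38, against 11.1 (limma adjusted p = 6.88e-05, 0.00205 and 0.0193). Among cytoskeletal SRF targets 0 rose and 7 of 17 fell (4 of 17 after median-of-ratios scaling), such as Tpm4, a tropomyosin, at 7.27 FPKM in dKO and 21.1 in WT (limma adjusted p = 4.82e-04). Of EGR targets 2 rose and 5 of 13 fell, led by Id3, a helix-loop-helix inhibitor, at 2.27 FPKM in dKO and 10.6 in WT (limma adjusted p = 7.46e-07). Of mRNAs known to be bound by Zfp36, 0 rose and 4 of 5 fell, and Ccl2, a monocyte chemokine, had the smallest p, with 1.003 FPKM in dKO and 14.5 in WT (limma adjusted p = 1.93e-07). That list holds Ier3, 1 of the 10 genes. The EGR target and Zfp36 target lists share Tnf and Vegfa. Genes of the kinase cascades moved in both directions. In the ERK cascade 2 were higher and 3 lower of 21, and in the p38 cascade 2 were higher and 2 lower of 6. In the remaining lists 1 gene was higher and 3 lower of 7 ZFP36 relatives and AU-rich element binders. The BTG/TOB and CCR4-NOT genes had 2 and 2 of 11. IER relatives and partners, a list that holds Ier5l, Hax1, Ier3ip1 and Hsf1, had 1 higher (Hax1) and 1 lower (Ier5l) of 4. The counts were 0 and 8 of 11 for AP-1 subunits and 4 and 15 of 22 for other immediate early genes. They were 1 and 3 of 6 for cAMP and CREB targets and 3 and 0 of 6 for heat shock genes. Without dKO replicate 1 the counts were 3 higher and 8 lower for EGR targets, 4 and 4 for the ERK cascade, 4 and 2 for BTG/TOB and CCR4-NOT genes, 1 and 9 for AP-1 subunits and 5 and 0 for heat shock genes. After median-of-ratios scaling the ERK cascade had 5 higher and 3 lower. The list of cAMP and CREB targets and that of other immediate early genes both hold Nr4a1 and Cited2. Btg1, the closest relative of Btg2, fell to 4.14 FPKM in dKO, against 9.22 in WT (limma adjusted p = 4.14e-04).

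Markers of other cell types also differed with genotype. Of 14 monocyte and macrophage markers 0 rose and 13 fell in dKO, with a summed level of 458 to 548 FPKM in dKO and 1208 to 1255 in WT. All 10 megakaryocyte markers fell (9 of 10 after quantile normalization), with sums of 73.7 to 137 FPKM in dKO and 285 to 312 in WT. Of 12 neutrophil markers tested 5 rose and 5 fell (1 and 5 after quantile normalization). The summed neutrophil level was higher in dKO, at 11173 to 11426 FPKM, against 8286 to 8656 in WT. Of 8 LSC markers 7 fell. The T cell markers Cd3e, Cd3d, Cd3g and Cd8a, the B cell marker Ms4a1 and the stromal markers Col3a1 and Cxcl12 were at 0 in all dKO libraries. In bulk libraries fewer cells of a type and less RNA per cell cannot be told apart, and the part of these cells in the results was not tested.

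**Figure D3:**
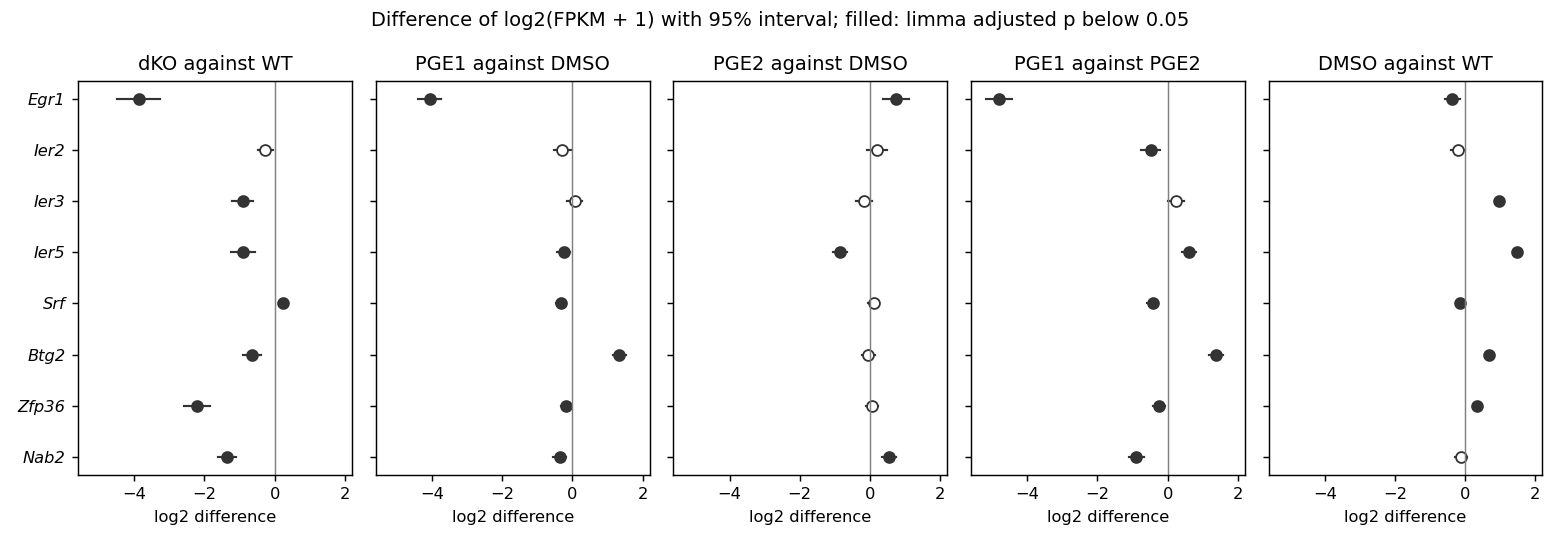
Difference of log2(FPKM + 1) with its 95% interval (horizontal axis) for the 8 genes tested, one panel a comparison, with filled points for a limma adjusted p below 0.05. Egr1 differs by -3.88 in dKO against WT and by -4.06 after PGE1 against DMSO, and by 0.74 after PGE2 against DMSO.

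The next 3 comparisons ask how the prostaglandins change control LSCs within 6 h at the same dose. They were fitted together and share libraries, so their results are not independent of each other. After PGE1, Egr1 fell furthest of the 10 genes and Btg2 rose. Of the 8 genes tested 1 rose and 5 fell against DMSO, where 49.1% of 11242 genes were called, 23.6% higher and 25.5% lower. The median log2 difference was -0.26 over the 8 genes and 0.0056 over all. Libraries did not overlap in 8 of the 10 genes, 1 higher and 7 lower after PGE1, against 57.2% of all genes, 27.9% higher and 29.2% lower.

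Egr1 had 5.74, 4.47 and 3.58 FPKM after PGE1, against 106, 83.2 and 86.1 FPKM after DMSO. The PGE1 libraries held 887 Egr1 reads in all and the DMSO libraries 18505, and the groups were far apart. The log2 difference was -4.06 ± 0.14 (limma adjusted p = 2.79e-07), the sixth largest fall of the 11242 genes, and the means differed 20.0-fold. Egr2 had 0.199, 0.207 and 0.273 FPKM after PGE1 (42 reads) and 1.17, 0.995 and 1.09 after DMSO (211 reads), 4.79-fold lower. Egr3 had 0.174, 0.0392 and 0.0727 FPKM after PGE1 (24 reads) and 0.378, 0.202 and 0.464 after DMSO (89 reads), 3.66-fold lower. In both genes the groups were apart, with a two-sided exact permutation p of 0.1, the smallest possible for 3 against 3 libraries. Nab2 had 11.3, 11.1 and 11.4 FPKM after PGE1, against 16.7, 14.2 and 13.3 FPKM after DMSO. It was 1.31-fold lower after PGE1 (log2 difference -0.35 ± 0.08, limma adjusted p = 0.00660), a smaller step than that of Egr1.

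Btg2 had 20.7, 25.1 and 23.1 FPKM after PGE1, against 8.71, 8.26 and 8.34 FPKM after DMSO. Every PGE1 library held more than 20 FPKM and no DMSO library as much as 9, a 2.72-fold rise (log2 difference 1.34 ± 0.08, limma adjusted p = 4.97e-06). Srf had 20.1, 19.7 and 18.3 FPKM after PGE1, against 25.2, 24.0 and 24.3 FPKM after DMSO, 1.26-fold lower with no overlap (limma adjusted p = 0.00179). Zfp36 had 43.2, 49.3 and 44.6 FPKM after PGE1 and 54.0, 51.1 and 50.5 after DMSO (log2 difference -0.18, limma adjusted p = 0.0472). Ier5 had 22.8, 28.4 and 25.0 FPKM after PGE1 and 30.1, 29.9 and 30.4 after DMSO (log2 difference -0.25, limma adjusted p = 0.0283). The groups did not overlap for Zfp36 or Ier5, but both calls depended on the fit: leaving out any DMSO library, or PGE1 replicate 1 or 3, raised the adjusted p to 0.0654 to 0.0786 for Ier5 and to 0.0792 to 0.131 for Zfp36. Ier3 had 60.1, 76.6 and 68.4 FPKM after PGE1 and 66.1, 61.3 and 67.5 after DMSO. These overlapped (log2 difference 0.07, 95% interval -0.14 to 0.27, limma adjusted p = 0.565), and without PGE1 replicate 2 the difference was -0.02. Ier2 had 41.8, 48.6 and 42.1 FPKM after PGE1 and 62.5, 48.1 and 51.7 after DMSO, overlapping and not called (limma adjusted p = 0.0575), though without PGE1 replicate 2 and DMSO replicate 1 together the adjusted p was 0.0312.

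Around these genes, 2 of 5 SRF partners rose after PGE1 and 0 fell, with Mkl1 at 18.6 FPKM after PGE1 and 13.6 after DMSO (limma adjusted p = 7.48e-04). Of 19 cytoskeletal SRF targets 4 rose and 4 fell (7 and 6 after quantile normalization, 6 and 8 without PGE1 replicate 2 and DMSO replicate 1), such as Zyx, a focal adhesion protein, at 86.4 FPKM after PGE1 and 64.1 after DMSO. The BTG relatives Btg1 and Tob1 rose 1.73-fold and 2.01-fold with Btg2 (limma adjusted p = 1.03e-04 and 6.82e-05), 2 of the 4 genes that rose among 11 BTG/TOB and CCR4-NOT genes, of which 2 fell. Of 8 cAMP and CREB targets 7 rose and 1 fell: Crem, a cAMP-responsive factor, stood at 27.8 FPKM after PGE1 and 4.18 after DMSO, and Pde4d, a cAMP phosphodiesterase, at 9.28 after PGE1 and 1.48 after DMSO. Of 11 AP-1 subunits 2 rose and 5 fell. Fos, an SRF target like Egr1, stood at 114 ± 15.2 FPKM after PGE1 and 118 ± 12.9 after DMSO, while Fosb stood at 0.841 ± 0.0712 after PGE1 and 117 ± 8.53 after DMSO (SD, n = 3 each). Of EGR targets 5 rose and 6 of 14 fell, among them Vegfa, an angiogenic factor, 2.27-fold higher, and Tnf, an inflammatory cytokine, 3.01-fold lower. Of Zfp36 target mRNAs 2 rose and 5 of 8 fell, with the chemokine Ccl3 at 6.47 FPKM after PGE1 and 43.8 after DMSO. The ERK cascade had 6 higher and 4 lower of 21 and the p38 cascade 2 and 1 of 6. The ZFP36 relatives and AU-rich element binders had 2 and 1 of 7, and the IER relatives and partners 0 and 1 of 4. Other immediate early genes had 11 and 11 of 25 and heat shock genes 0 and 4 of 8. The gene that fell among the IER relatives and partners was Hsf1, the heat shock factor that IER5 acts on. Hsf1 stood at 11.7 FPKM after PGE1 and 15.7 after DMSO (limma adjusted p = 0.00125).

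With PGE1, 0 of 13 neutrophil markers tested rose and 11 fell (13 after quantile normalization), and their summed level was 1963.5 to 3012 FPKM after PGE1 and 5408 to 6437 after DMSO. Of 14 monocyte and macrophage markers 3 rose and 8 fell, with sums of 1138 to 1443 FPKM after PGE1 and 1161 to 1398 after DMSO. Of 8 LSC markers 3 rose and 2 fell, and Kit averaged 42.2 FPKM after PGE1 and 26.1 after DMSO. The part of these shifts in the values above was not tested.

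After PGE2, 2 of the 8 genes tested rose against DMSO (Egr1 and Nab2) and 1 fell (Ier5). Over all 11242 genes 5.57% were called, 0.996% higher and 4.57% lower. The median log2 difference was 0.08 over the 8 genes and 0.0048 over all. Libraries did not overlap in 5 of the 10 genes, 3 higher and 2 lower after PGE2, where 49.1% of all genes did not overlap, 25.0% higher and 24.1% lower.

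Egr1 had 151 and 156 FPKM after PGE2, against 106, 83.2 and 86.1 FPKM after DMSO. Both PGE2 libraries lay above all DMSO libraries, with a 1.67-fold difference in means (log2 difference 0.74 ± 0.16, limma adjusted p = 0.0314). Nab2 had 21.6 and 22.0 FPKM after PGE2, against 16.7, 14.2 and 13.3 after DMSO, also without overlap (1.48-fold, log2 difference 0.54 ± 0.09, limma adjusted p = 0.0122). With either PGE2 library left out the adjusted p was 0.185 or 0.231 for Egr1 and 0.112 or 0.138 for Nab2, and without DMSO replicate 2 it was 0.120 and 0.0634; without DMSO replicate 3 that of Egr1 was 0.117. Ier5 had 16.3 and 16.4 FPKM after PGE2, against 30.1, 29.9 and 30.4 after DMSO. It was 1.85-fold lower after PGE2 (log2 difference -0.85 ± 0.09, limma adjusted p = 9.15e-04), with the libraries of each group close together.

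Btg2 had 8.42 and 7.90 FPKM after PGE2, among the 8.26 to 8.71 FPKM of DMSO or just below, and its log2 difference was -0.04 (95% interval -0.24 to 0.16, limma adjusted p = 0.835). Zfp36 averaged 54.1 ± 0.685 FPKM after PGE2 (n = 2) and 51.9 ± 1.88 after DMSO (n = 3), with a 95% interval of -0.11 to 0.23 on the log2 scale (limma adjusted p = 0.707). Srf averaged 26.4 ± 0.121 FPKM after PGE2 and 24.5 ± 0.610 after DMSO, Ier3 57.5 ± 1.66 and 65.0 ± 3.25, and Ier2 62.2 ± 6.12 and 54.1 ± 7.48, in the same order of groups. These were not called (limma adjusted p = 0.412, 0.371 and 0.386), although the libraries of Srf and Ier3 did not overlap. Egr2 had 127 reads after PGE2 and 211 after DMSO, and Egr3 had 51 and 89. Both overlapped between the groups, at 1.05 and 1.09 FPKM for Egr2 and at 0.321 and 0.348 for Egr3 (two-sided exact permutation p = 0.8 for each). No SRF partner of 5 and no heat shock gene of 8 was called after PGE2. Nor was any of 7 ZFP36 relatives and AU-rich element binders or of 4 IER relatives and partners. Without DMSO replicate 1 and PGE1 replicate 2 the count was 3 higher for ZFP36 relatives and AU-rich element binders. Heat shock genes then had 1 higher and 2 lower. Among cytoskeletal SRF targets 0 rose and 2 of 19 fell (6 without those libraries), in the ERK and p38 cascades 1 gene each fell (Rps6ka2, an ERK-activated kinase, and Map2k3, a p38 activator), and of EGR targets 2 rose and 3 of 14 fell. Of Zfp36 target mRNAs 1 rose and 2 of 8 fell, and 1 of 11 BTG/TOB and CCR4-NOT genes fell, Btg1, to 16.3 FPKM after PGE2, against 21.9 after DMSO (limma adjusted p = 0.0353). Fos was higher after PGE2, at 223 ± 14.1 FPKM (n = 2), against 118 ± 12.9 after DMSO (n = 3; limma adjusted p = 0.00429), 1 AP-1 subunit of 11 that rose while 3 fell. Of cAMP and CREB targets 2 of 8 rose, Nr4a1 and Pde4d, and of other immediate early genes 2 rose and 5 of 25 fell. Of 13 neutrophil markers 1 rose and 0 fell (6 and 1 without those libraries), with sums of 7908 to 8017 FPKM after PGE2 and 5408 to 6437 after DMSO. Of 14 monocyte and macrophage markers 3 rose and 1 fell (6 and 1 without those libraries), with sums of 1514 to 1565 FPKM after PGE2 and 1161 to 1398 after DMSO. The part of these markers' cells in the values was not tested.

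PGE1 and PGE2 can be compared directly, as the only pair of related compounds, at the same dose and time. Among the 8 genes tested, Egr1, Btg2, Nab2 and Ier5 separated them most. Of the 8 genes tested 2 were higher and 5 lower after PGE1, where 53.9% of all 11242 genes were called, 27.2% higher and 26.7% lower. The median log2 difference was -0.33 over the 8 genes and 0.02 over all genes. Libraries did not overlap in any of the 10 genes, 3 higher and 7 lower after PGE1, against 69.9% of all genes, 36.2% higher and 33.7% lower.

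Egr1 averaged 4.60 ± 1.09 FPKM after PGE1 (n = 3) and 153 ± 3.46 after PGE2 (n = 2), a 33.3-fold difference and the second largest fall of all genes tested (log2 difference -4.80 ± 0.16, limma adjusted p = 1.21e-06). Nab2 averaged 11.3 ± 0.176 FPKM after PGE1 and 21.8 ± 0.297 after PGE2, 1.93-fold lower (limma adjusted p = 8.16e-05). Egr1 and its co-repressor both stood lower in every PGE1 library than in either PGE2 library. Egr2 and Egr3 were 4.65-fold and 3.37-fold lower after PGE1, without overlap (two-sided exact permutation p = 0.2 for each, the smallest that 3 against 2 libraries allow). Btg2 ran the other way, at 23.0 ± 2.21 FPKM after PGE1 and 8.16 ± 0.365 after PGE2, 2.82-fold higher (log2 difference 1.38 ± 0.09, limma adjusted p = 1.09e-05). Ier5 was 1.55-fold higher, at 25.4 ± 2.83 FPKM after PGE1 and 16.3 ± 0.0277 after PGE2 (limma adjusted p = 5.10e-04). Both values lay below the 30.2 ± 0.265 FPKM of DMSO. Srf averaged 19.4 ± 0.977 FPKM after PGE1 and 26.4 ± 0.121 after PGE2, 1.36-fold lower (limma adjusted p = 6.44e-04). Ier2 was 1.41-fold lower after PGE1 (limma adjusted p = 0.00875, or 0.0871 without PGE2 replicate 2). Zfp36 was 1.18-fold lower after PGE1 (limma adjusted p = 0.0222), a call lost without either PGE2 library (0.0936 and 0.126) and without PGE1 replicate 1 or 3 (0.0527 and 0.0543). Ier3 averaged 68.4 ± 8.28 FPKM after PGE1 and 57.5 ± 1.66 after PGE2, and its log2 difference of 0.24 had a 95% interval of 0.01 to 0.47 and was not called (limma adjusted p = 0.0716, or 0.0126 without PGE1 replicate 1).

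The lists separated the compounds as follows. Of 8 cAMP and CREB targets 7 were higher and 1 lower after PGE1 than after PGE2, with Rgs2, a G protein regulator, at 43.1 FPKM after PGE1 and 11.8 after PGE2. Of 19 cytoskeletal SRF targets 7 were higher and 2 lower, and of SRF partners 2 of 5 were higher and 0 lower (5 and 0 without PGE1 replicate 2 and DMSO replicate 1). EGR targets had 7 higher and 5 lower of 14 (5 and 5 after median-of-ratios scaling), Zfp36 targets 2 and 5 of 8, AP-1 subunits 1 and 5 of 11 and other immediate early genes 10 and 9 of 25. The ERK cascade had 5 and 4 of 21 and the p38 cascade 2 and 3 of 6. ZFP36 relatives and AU-rich element binders had 2 and 2 of 7 and BTG/TOB and CCR4-NOT genes 2 and 2 of 11. IER relatives and partners had 0 and 2 of 4 and heat shock genes 0 and 4 of 8. Without PGE1 replicate 2 and DMSO replicate 1 the counts were 2 higher and 8 lower for AP-1 subunits, 4 and 2 for BTG/TOB and CCR4-NOT genes and 7 and 4 for cytoskeletal targets. AP-1 subunits had 3 higher and 5 lower after quantile normalization. Neutrophil markers differed here too, 0 higher and 12 lower of 13, with sums of 1963.5 to 3012 FPKM after PGE1 and 7908 to 8017 after PGE2. Their part in the values was not tested.

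**Figure D4:**
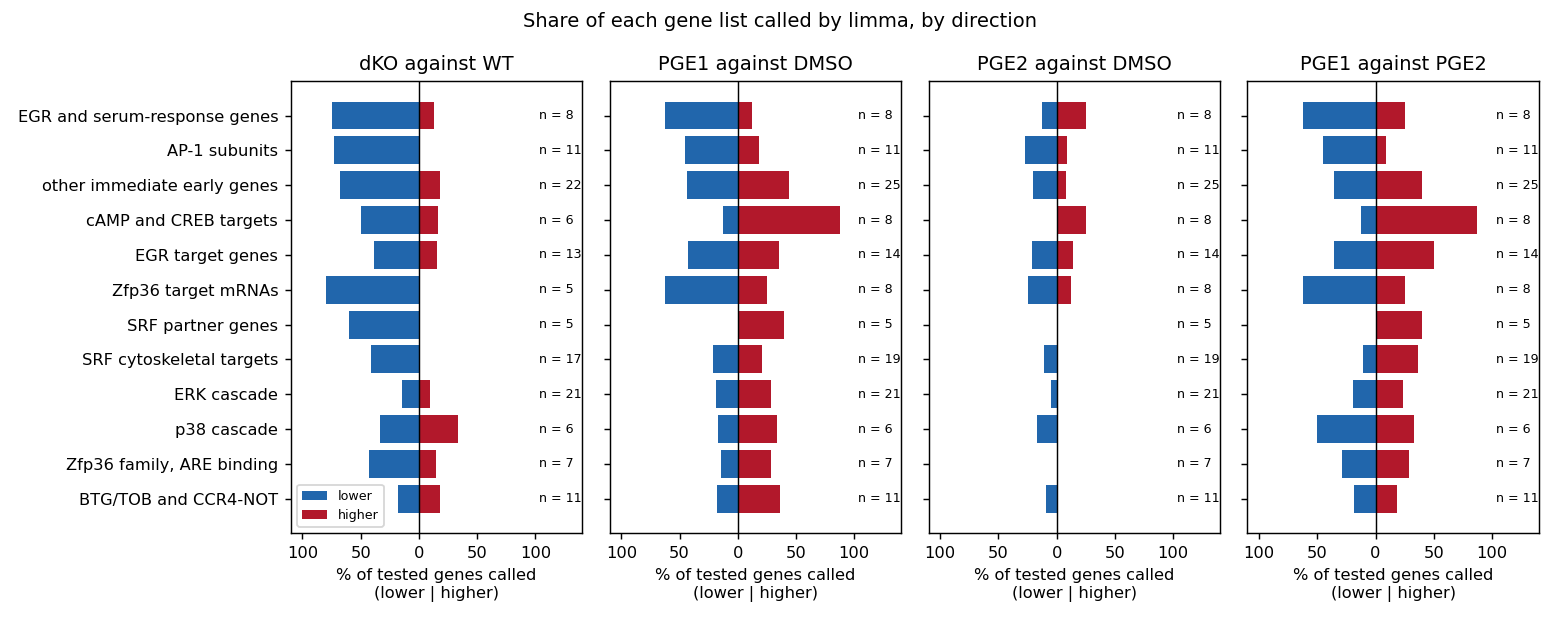
Percent of each list's tested genes (n beside each bar) that limma called lower (left, blue) or higher (right, red), one panel a comparison. The 10 genes, of which 8 were tested, show 6 lower and 1 higher in dKO against WT and 5 lower and 1 higher after PGE1, and the cAMP and CREB targets show 7 of 8 higher after PGE1.

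DMSO and WT are both control LSCs, and the solvent, the 6 h of treatment, the depth and any batch cannot be told apart between them. Of the 8 genes tested 4 were higher and 2 lower after DMSO, where 56.6% of 11115 genes were called, 26.0% higher and 30.7% lower. The median log2 difference was 0.10 over the 8 genes and -0.03 over all. Libraries did not overlap in 7 of the 10 genes, 5 higher and 2 lower, against 64.3% of all genes, 29.3% higher and 35.0% lower. Ier5 averaged 30.2 ± 0.265 FPKM after DMSO and 10.3 ± 0.376 in WT, 2.93-fold higher (limma adjusted p = 1.73e-07). Ier3 averaged 65.0 ± 3.25 FPKM after DMSO and 32.9 ± 0.655 in WT, 1.97-fold higher (limma adjusted p = 2.33e-06). Btg2 was 1.74-fold higher and Zfp36 1.27-fold higher after DMSO (limma adjusted p = 3.26e-05 and 6.63e-04). Egr1 was 1.28-fold lower after DMSO (limma adjusted p = 0.00800), and Srf 1.11-fold lower (limma adjusted p = 0.0197, and 0.0547 to 0.0855 without DMSO replicate 2 or 3 or WT replicate 1 or 3). Ier2 and Nab2 averaged 54.1 and 14.8 FPKM after DMSO and 62.7 and 16.1 in WT and were not called (limma adjusted p = 0.0609 and 0.208), but without DMSO replicate 1 both passed (2.76e-04 and 0.00427). In 7 of the 10 genes DMSO replicate 1 was the highest DMSO library. Egr2 averaged 1.09 FPKM after DMSO and 0.806 in WT and Egr3 0.348 and 0.248 (two-sided exact permutation p = 0.1 and 0.4). Of 18 cytoskeletal SRF targets 11 were higher after DMSO and 0 lower, and of 23 other immediate early genes 14 and 5. AP-1 subunits had 8 and 2 of 11, EGR targets 8 and 4 of 14 and Zfp36 targets 6 and 1 of 8. SRF partners had 2 and 1 of 5, the ERK cascade 5 and 2 of 21 and the p38 cascade 2 and 3 of 6. cAMP and CREB targets had 4 and 2 of 8 and BTG/TOB and CCR4-NOT genes 3 and 4 of 11. ZFP36 relatives and AU-rich element binders had 0 and 2 of 7 and IER relatives and partners 0 and 2 of 4. Heat shock genes had 3 higher and 4 lower of 8. The higher ones included Hspa1a and Hspa1b, near-identical copies whose reads may be split between them, at 7.36 and 9.43 FPKM after DMSO and 0.116 and 0.273 in WT. Of 13 neutrophil markers 3 were higher and 8 lower after DMSO, with sums of 5408 to 6437 FPKM after DMSO and 8286 to 8656 in WT. Of 9 mast cell and basophil markers 6 were higher and 1 lower, with sums of 347 to 362 FPKM after DMSO and 177 to 185 in WT, and of 14 monocyte and macrophage markers 5 were higher and 2 lower (5 and 4 without DMSO replicate 1). Their part in the values was not tested.

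**Figure D5:**
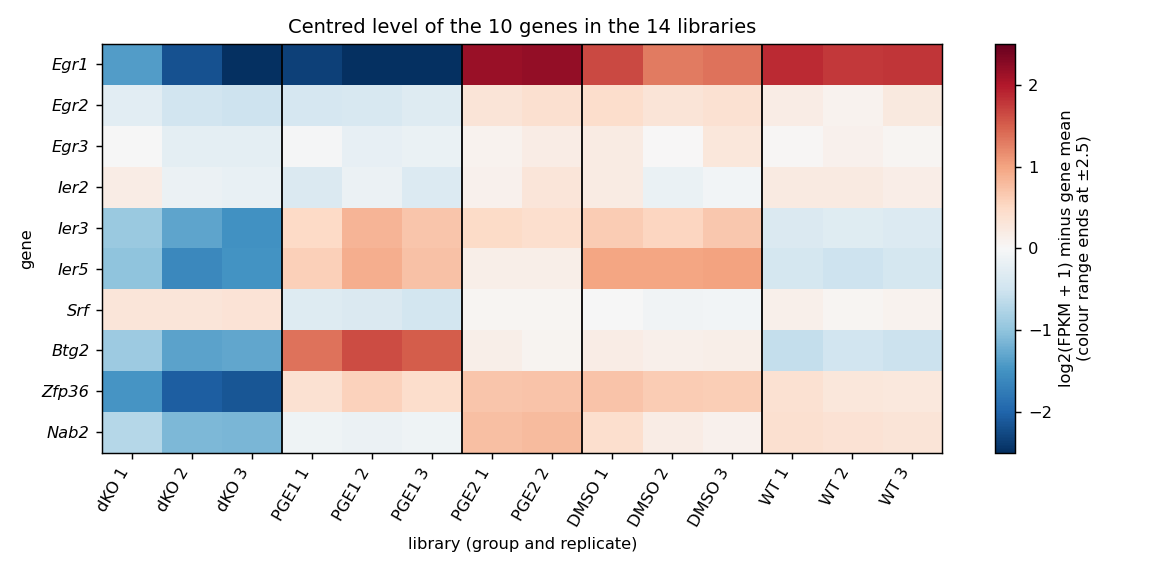
Log2(FPKM + 1) of each gene minus its own mean over the 14 libraries (colour), with genes in rows and libraries in columns by group, dKO leftmost and WT rightmost. Egr1 is low in the 3 dKO and 3 PGE1 libraries, Zfp36 and Nab2 are lowest in dKO, and Btg2 is highest in the PGE1 libraries.

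Patterns were also compared across all 14 libraries, as the root mean square difference of centred log2(FPKM + 1) over 8362 other genes. This is a description, and the libraries share groups and depth. The closest to Egr1 were Lpl, a lipoprotein lipase (0.628), Ccl2, a monocyte chemokine (0.670), Fabp4, a fatty acid carrier (0.779), Camp, a granule peptide of neutrophils (0.906), and C1qc, a complement subunit of macrophages (0.933). Lpl averaged 0.958 FPKM in dKO, 0.751 after PGE1, 20.8 after PGE2, 35.6 after DMSO and 17.7 in WT. Ccl2 averaged 1.003 FPKM in dKO, 1.35 after PGE1, 19.1 after PGE2, 15.1 after DMSO and 14.5 in WT. Like Egr1, both were low in dKO and after PGE1. The distances were far smaller for the genes closest to Srf, whose own range was narrow: Lman2, a cargo lectin of the secretory pathway (0.0331), Pcbp1, an RNA-binding protein (0.0400), and Etf1, a translation release factor (0.0402). Lman2 averaged 84.0 FPKM in dKO, 50.3 after PGE1, 69.1 after PGE2, 63.3 after DMSO and 71.9 in WT. Closest to Btg2 were Robo3, an axon guidance receptor (0.127), Stx11, a syntaxin of cytotoxic granule release (0.144), and Rab27b, a secretory GTPase (0.152). Stx11 averaged 4.28 FPKM in dKO, 42.4 after PGE1, 13.2 after PGE2, 14.9 after DMSO and 8.05 in WT, with the order of groups that Btg2 showed. Within the 10 genes the closest pairs were Egr3 with Ier2 (0.177), Ier2 with Srf (0.227), Egr2 with Egr3 (0.229) and Ier3 with Ier5 (0.236), and the farthest was Egr1 with Btg2 (2.45). Egr2, Egr3, Ier2 and Srf each had a small range on this scale.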

How the data were processed

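RNA libraries were sequenced by the authors from total RNA of sorted LSCs. The authors computed the deposited FPKM values with CASAVA 1.8, TopHat and Cufflinks on mouse build mm9, per the submitters' processing notes; no source used here gives strand handling or annotation, and reads of overlapping antisense genes cannot be told apart. FPKM held whole reads in 100% of the 19057 genes with reads (within 0.001 of a read); 59.0% to 61.1% of reads lay in genes. Read numbers cover counting error only. Groups came from titles.

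The members and gene lists were chosen with earlier results of these data known. limma 3.58.1 (on R 4.3.3, eBayes with a trend) was run on log2(FPKM + 1), keeping genes whose mean in the fit reached 1 FPKM, two-sided, with Benjamini-Hochberg adjustment over all genes tested and a threshold of 0.05. The scale understates changes of low genes. The 3 treated groups were 1 fit; dKO with WT and DMSO with WT were fits of their own. Folds are ratios of mean FPKM. Genes below the minimum (Egr2, Egr3) were tested on FPKM by two-sided exact permutation.

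Named genes were all 10 members, up to 3 genes by smallest p in each list, of which some are given here, and the 5, 3 and 3 genes nearest to Egr1, Srf and Btg2 (mean of at least 1 FPKM, highest group at least 5 FPKM, clone-type symbols left out). Fos after PGE1 was named after its values were seen. Motifs were searched in the 250 bases before each RefSeq start, for the 10 genes and for all windows alike. Alternatives were other pseudocounts, minimum levels, scalings, a fit over all 14 libraries, a replicate block, voom on recovered reads and leaving out each library; fits of 2 groups alone and fits without the libraries that stood apart were added after seeing the data. The fits were tested on simulated data. Other steps used scipy 1.17.1, pandas 2.3.3, numpy 2.4.6 and, for figures, matplotlib 3.10.9, under Python 3.11.15.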

Additional observations from a re-analysis of the deposited data

How the results depend on the processing

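Over 25 alternatives and 583 log2 differences of single genes, 524 kept direction and side of the threshold, 19 passed it newly, 38 no longer passed and 2 reversed. Both reversals were Ier3 after PGE1 against DMSO, not called in any fit: -0.019 without PGE1 replicate 2 and -0.0058 without PGE1 replicate 2 and DMSO replicate 1 together (limma adjusted p = 0.839 and 0.954), while its highest values were 0.16 after quantile normalization and 0.15 without PGE1 replicate 1. The number of genes called against DMSO after PGE2, 3 of 8, was 1 without PGE2 replicate 1, without PGE2 replicate 2 or without DMSO replicate 2, and the cause was not tested. Leaving out single libraries gave 7 to 8 calls for dKO against WT, 4 to 7 for PGE1 against DMSO, 1 to 3 for PGE2 against DMSO, 5 to 7 for PGE1 against PGE2 and 5 to 8 for DMSO against WT. Over all genes the count for PGE2 against DMSO moved by more than 1.5 times, with 112 higher and 514 lower as reported, 432 and 775 in the fit over all 14 libraries, 710 and 1019 in a fit of these groups alone, 689 and 1074 without DMSO replicate 1 and PGE1 replicate 2, 26 and 243 with a replicate block, 6 and 150 without PGE2 replicate 1, 4 and 121 without PGE2 replicate 2, 24 and 216 without DMSO replicate 2 and 25 and 211 without DMSO replicate 3. voom on the recovered reads called 198 and 581 there, and 2079 and 2638 for dKO against WT. In the fit over all 14 libraries the calls of Egr1 after PGE2 (limma adjusted p = 0.0867), Ier5 and Zfp36 after PGE1 against DMSO (0.106 and 0.250), Zfp36 between PGE1 and PGE2 (0.170) and Egr1 after DMSO against WT (0.215) were lost. With no minimum level Egr1 after PGE2 had an adjusted p of 0.0685, and Egr2 passed for dKO against WT (0.00368), PGE1 against DMSO (1.48e-04) and PGE1 against PGE2 (2.76e-04), and Egr3 for PGE1 against DMSO (0.0271) but in no other comparison.

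Deviations of same-numbered libraries from their group means correlated at -0.377 to 0.379, and no pairing by number was assumed. Different-numbered libraries reached wider values, 0.532 for PGE1 replicate 2 with DMSO replicate 1 and -0.503 for PGE1 replicate 3 with DMSO replicate 1. The source of these values was not tested. Pairing is not excluded by this. The deviations of the 2 PGE2 libraries mirror each other, so the comparisons with PGE2 cannot show it. With a replicate block 8 genes were called for dKO against WT, 5 for PGE1 against DMSO, 2 for PGE2 against DMSO, 6 for PGE1 against PGE2 and 7 for DMSO against WT; Nab2 after PGE2 had an adjusted p of 0.0543. Depth limits Egr2 and Egr3, with 12 to 89 and 1 to 39 reads a library.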
